A study of Mus musculus with 36 samples.

Results

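The return to air after the daily bout of intermittent hypoxia (IH) was followed in liver by comparing mice killed at ZT12 with mice killed at ZT8, where ZT is the time in hours after lights on. All mice were wild-type male C57BL/6JRj animals of 16 weeks, kept 5 to a cage on a light-dark cycle of 12 h each with free access to food. IH mice had spent 4 weeks under 60 cycles per hour between 5% and 21% inspired oxygen from ZT0 to ZT8 each day. ZT8 therefore falls at the end of the exposure and ZT12 falls at lights off, after 4 h of room air. Control mice of the same age were given air-to-air cycles. The comparison uses 6 of the 36 liver libraries of the study, 3 at ZT8 and 3 at ZT12, each from 1 mouse, and sets beside them the 6 control libraries of the same hours. Expression is given in FPKM, fragment counts scaled for transcript length and for the size of the library, and differences are given on the log2(FPKM + 1) scale as ZT12 minus ZT8 with the standard error.

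Several signals change together in these hours. The liver clock is a loop in which BMAL1 (Arntl) and CLOCK activate the Per, Cry, Rev-erb and Dbp genes, whose products then repress or relay the signal, and its output turns over around dusk, when nocturnal mice begin to eat. Low oxygen stabilises the HIF transcription factors, reoxygenation loads the cell with oxidants, and feeding and a warmer body at dusk act on insulin-responsive, heat shock and cold-inducible genes, so clock time, oxygen, temperature and food can all change between ZT8 and ZT12. Within IH mice the end of hypoxia and the time of day cannot be told apart, and the control mice give the hours alone.

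Of 13215 genes tested, 1063 (8.04%) were higher and 2160 (16.3%) were lower at ZT12 than at ZT8 in IH liver at an adjusted p of 0.05 (limma, Benjamini-Hochberg over all genes tested, n = 3 against 3 mice), which makes 3223 genes or 24.4% in all. Most shifts were modest, since 86 of the genes that rose and 109 of those that fell moved by more than 1 on the log2 scale. The 3 values at ZT12 did not overlap the 3 at ZT8 for 5963 genes (45.1%), with 2220 higher (16.8%) and 3743 lower (28.3%), and every called gene was among them. For a called gene, a lack of overlap therefore describes its values and adds no support to the call. The share of called genes that were higher, 33.0%, depended on the scaling between libraries. Rescaling to a common sum gave 1036 higher and 2267 lower genes (31.4% higher), median-of-ratios scaling 1383 and 1658 (45.5%), and quantile normalization 1493 and 1563 (48.9%), so the excess of falls over rises depended on the scaling. The median difference over all genes was −0.04, and 19 genes were at 0 in all 6 libraries. The counts also leaned on single libraries, falling to 259 higher and 648 lower without ZT8 replicate 1 and to 306 and 682 without ZT8 replicate 2, while leaving out ZT12 replicate 3 gave 816 and 1408. In liver pieces, fewer cells of one type and less RNA per cell cannot be told apart.

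The 12 largest rises included those of Serpina4-ps1, of 6 genes of protein folding, of Ppp1r3b in glycogen metabolism, and of Tsku, Nrep and Cml5. Serpina4-ps1, annotated as a serpin pseudogene at chr12:104077959-104086920 on GRCm38, had 18.0, 13.9 and 23.5 FPKM at ZT8 and 437, 258 and 234 FPKM at ZT12. The ZT12 mice were all far above the ZT8 mice (log2 difference 3.97 ± 0.27, adjusted p = 0.00236), although reads of such a copy can be shared with related serpin genes. Creld2, which encodes a protein of the endoplasmic reticulum induced by misfolded proteins, had 10.3, 9.31 and 16.7 FPKM at ZT8 and 58.8, 180.4 and 85.6 FPKM at ZT12. Its groups lay apart even though replicate 2 at ZT12 was much higher than the other mice (log2 difference 2.94 ± 0.41, adjusted p = 0.00696). Ppp1r3b, the liver subunit that brings protein phosphatase 1 to glycogen, had 16.7, 23.6 and 22.0 FPKM at ZT8 and 78.6, 97.1 and 91.2 FPKM at ZT12. Both groups were tight and did not overlap (log2 difference 2.06 ± 0.14, adjusted p = 0.00236). Tsku, which encodes the secreted liver protein tsukushi, had 22.2, 36.5 and 40.3 FPKM at ZT8 and 155, 128 and 132 FPKM at ZT12 and again showed no overlap (log2 difference 2.07 ± 0.21, adjusted p = 0.00418). Nrep, a gene of neuronal regeneration, and Cml5 showed no overlap either. Nrep had 6.67, 11.7 and 6.58 FPKM at ZT8 and 34.4, 34.8 and 30.8 FPKM at ZT12 (log2 difference 1.93 ± 0.20, adjusted p = 0.00418), and Cml5 had 5.66, 6.02 and 7.06 FPKM at ZT8 and 22.9, 31.1 and 25.6 FPKM at ZT12 (log2 difference 1.92 ± 0.13, adjusted p = 0.00236). Another 5 of the 12, all chaperones, are described with their family.

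The 12 largest falls included the clock genes Nr1d1 and Dbp, described with the clock. Rgs16 (chr1:153740353-153745468), which switches off signals from G protein-coupled receptors, had 155, 102 and 108 FPKM at ZT8 and 16.2, 11.5 and 16.6 FPKM at ZT12. Every ZT8 mouse was above every ZT12 mouse (log2 difference −2.95 ± 0.20, adjusted p = 0.00236). Trib3, a pseudokinase gene induced by nutrient and protein stress, had 12.0, 11.0 and 6.29 FPKM at ZT8 and 1.02, 1.08 and 1.57 FPKM at ZT12. The values kept apart by a wide margin (log2 difference −2.24 ± 0.23, adjusted p = 0.00399). Aqp8, a water channel, had 73.7, 61.8 and 25.7 FPKM at ZT8 and 8.46, 15.0 and 6.01 FPKM at ZT12. ZT8 replicate 3 was low for its group and yet above all ZT12 mice (log2 difference −2.29 ± 0.45, adjusted p = 0.0161). Klf10, a zinc finger factor induced by growth factors and glucose, had 29.3, 21.5 and 18.3 FPKM at ZT8 and 6.89, 10.9 and 3.22 FPKM at ZT12. Its spread at ZT12 was wide, without overlap with ZT8 (log2 difference −1.68 ± 0.37, adjusted p = 0.022). Casp6, an executioner caspase, had 25.3, 20.7 and 18.1 FPKM at ZT8 and 6.59, 4.49 and 6.32 FPKM at ZT12 and no overlap (log2 difference −1.72 ± 0.16, adjusted p = 0.00379). The remaining falls were those of Tymp, thymidine phosphorylase (−1.86 ± 0.17, adjusted p = 0.00302), the F-box gene Fbxo21 (−1.67 ± 0.13, adjusted p = 0.00244), the C-type lectin gene Clec2h (−2.39 ± 0.30, adjusted p = 0.00566), Fam13a (−1.86 ± 0.24, adjusted p = 0.00622) and the predicted gene Gm10804 (−2.32 ± 0.19, adjusted p = 0.00244). Exons of Tymp overlap those of Sco2 and of Ncaph2, and those of Rgs16 and Fam13a overlap antisense transcripts, so their reads may not all be their own. Exons of Arntl, Alas1, Nr1i3, Rbm3, Hsd3b7, Gabarapl1 and Hspa1a also overlap genes on the opposite strand. On the same strand, exons of Hsd3b7 overlap Gm49388, those of Ctsl Gm49230, those of Tgfbr3l Gm49320 and those of Serpina3k Serpina3m. The adjusted p was over 0.05 without ZT8 replicate 1 for Aqp8 (0.0617) and Klf10 (0.0833) and without ZT8 replicate 2 for Aqp8 (0.065) and Klf10 (0.0728).

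**Figure D1:**
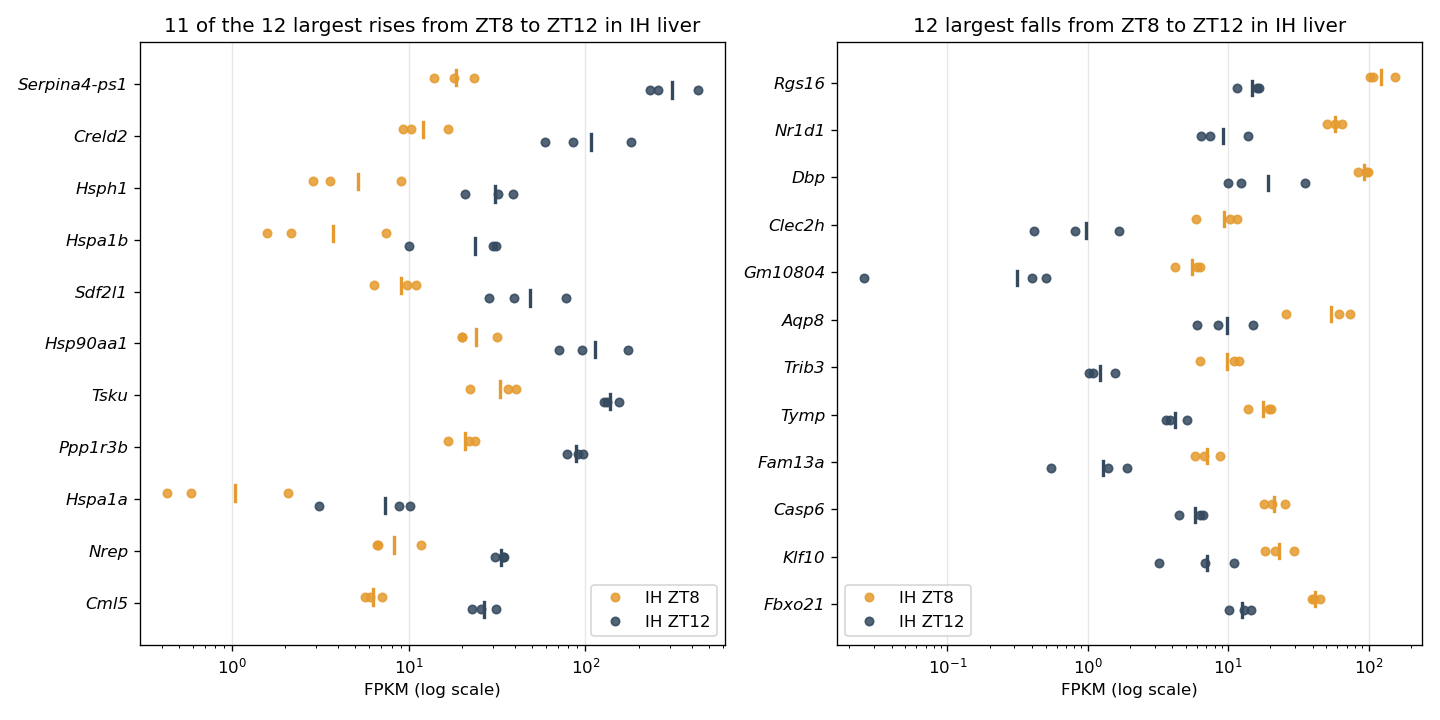
FPKM of each mouse on a log axis for 11 of the 12 genes with the largest rises (left) and the 12 with the largest falls (right) between ZT8 and ZT12 in IH liver, with orange points for ZT8, dark points for ZT12 and bars for the mean of 3. In each of the 23 genes the orange and the dark points form separate groups, as the choice of these genes required.

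The clock genes moved in both directions. Of 5 activators tested, 3 rose, among them Arntl and Clock (1 without ZT8 replicate 1 or 2 or 3 or ZT12 replicate 3), and 0 fell (1 without ZT12 replicate 1 or with the replicate block). Of 10 repressors, 2 rose (1 without ZT8 replicate 1 or 2 or ZT12 replicate 2 or 3) and 6 fell. In these short lists, rises made up 60.0% of activators and 20.0% of repressors, beside 8.04% of all genes. Falls made up 0.0% and 60.0%, beside 16.3% of all genes. Arntl, which encodes BMAL1, had 0.216, 0.314 and 0.197 FPKM at ZT8 and 0.670, 1.96 and 1.26 FPKM at ZT12. All 3 mice at ZT12 exceeded the mice at ZT8, at a level near 1 FPKM where the added pseudocount compresses the change (log2 difference 0.85 ± 0.19, adjusted p = 0.0235). Clock, its partner, had 0.945, 1.18 and 1.12 FPKM at ZT8 and 1.47, 2.34 and 2.11 FPKM at ZT12. The groups were separate but close (log2 difference 0.50 ± 0.12, adjusted p = 0.0274). Npas2 stayed at 0.0206, 0.0216 and 0.0459 FPKM at ZT8 and 0.0221, 0.0227 and 0.00628 at ZT12, and Rora had a difference of −0.37 ± 0.13 (adjusted p = 0.0809). Calls were lost without ZT8 replicate 1 for Arntl (0.0837) and Clock (0.1) and without ZT8 replicate 2 for Arntl (0.0719) and Clock (0.0751). The test was no longer passed without ZT8 replicate 3 for Arntl (0.0627) and Clock (0.0624) and without ZT12 replicate 2 for Clock (0.0575). The threshold was missed without ZT12 replicate 3 for Arntl (0.0628) and Clock (0.076) and with no filter on low values for Clock (0.0503). The test was passed with the replicate block (−0.37, adjusted p = 0.0491), with the spread of all 18 IH libraries (−0.37, adjusted p = 0.0451) and without ZT12 replicate 1 (−0.48, adjusted p = 0.0423) for Rora.

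Among the repressors, Nr1d1 (REV-ERBα, chr11:98767932-98775377), which silences Arntl, had 58.0, 64.5 and 50.6 FPKM at ZT8 and 14.0, 7.46 and 6.37 FPKM at ZT12. The ZT12 mice were all at a small part of the ZT8 level (log2 difference −2.58 ± 0.26, adjusted p = 0.00395). Its paralogue Nr1d2 had 21.9, 21.6 and 19.9 FPKM at ZT8 and 14.1, 9.49 and 10.3 FPKM at ZT12 and no overlap (log2 difference −0.86 ± 0.14, adjusted p = 0.00899). Ciart, a repressor of BMAL1 and CLOCK, had 32.2, 27.3 and 22.9 FPKM at ZT8 and 14.7, 5.64 and 9.78 FPKM at ZT12. The values did not overlap, with ZT12 replicate 1 the nearest to ZT8 (log2 difference −1.44 ± 0.30, adjusted p = 0.019). Per3 (−0.97 ± 0.15, adjusted p = 0.0084), Bhlhe41 (−1.03 ± 0.12, adjusted p = 0.00484) and Cry2 (−0.50 ± 0.09, adjusted p = 0.0132), all part of the negative limb, also fell. The 2 that rose were Cry1, the late-phase cryptochrome, and Per2. Cry1 had 2.28, 2.94 and 2.73 FPKM at ZT8 and 4.84, 7.82 and 7.90 FPKM at ZT12 (log2 difference 1.08 ± 0.18, adjusted p = 0.00993), and Per2 had 5.79, 7.03 and 8.36 FPKM at ZT8 and 9.92, 15.1 and 13.6 FPKM at ZT12 (log2 difference 0.78 ± 0.17, adjusted p = 0.023). Neither overlapped between the groups. Per1 (−0.30 ± 0.16, adjusted p = 0.222) and Bhlhe40 (−0.09 ± 0.20, adjusted p = 0.765) did not pass the test. Of the 4 bZIP factors that carry the clock signal to its targets, Dbp and Tef fell (0 without ZT8 replicate 1 and 1 without ZT8 replicate 2) and Nfil3, which binds the same sites as a repressor, rose. Falls made up 50.0% of these 4 factors and rises 25.0%, beside 16.3% and 8.04% of all genes. Dbp had 98.7, 95.4 and 84.4 FPKM at ZT8 and 35.1, 10.1 and 12.4 FPKM at ZT12, with ZT12 replicate 1 higher than the other 2 mice of its group and below every ZT8 mouse (log2 difference −2.42 ± 0.41, adjusted p = 0.0111). Nfil3 had 3.38, 3.22 and 2.76 FPKM at ZT8 and 10.1, 9.96 and 12.5 FPKM at ZT12, with no overlap (log2 difference 1.52 ± 0.11, adjusted p = 0.00236), and Tef fell by a smaller amount (−0.67 ± 0.12, adjusted p = 0.0126). Dbp exons overlap Sphk2 and Nr1d1 exons overlap Thra on the opposite strand, and the strand setting of the counting is not given in the sources used here. Adjusted p values over 0.05 were found without ZT8 replicate 1 for Ciart (0.0756), Cry2 (0.0526), Per2 (0.0819), Dbp (0.0514) and Tef (0.0522) and without ZT8 replicate 2 for Ciart (0.0701), Cry2 (0.06), Per2 (0.078) and Tef (0.0536). Some of these calls ended without ZT12 replicate 2 for Per2 (0.0542) and without ZT12 replicate 3 for Per2 (0.0661). The threshold of 0.05 was not met with the spread of all 18 IH libraries for Tef (0.0582). The test was passed without ZT12 replicate 3 (−0.49, adjusted p = 0.0277) for Per1.

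Many heat shock and chaperone genes rose. Of 39 heat shock genes tested, 21 rose (8 without ZT8 replicate 1 and 9 without ZT8 replicate 2) and 1 fell, and their median difference was 0.43, against −0.04 over all genes. The share that rose, 53.8%, stands beside 8.04% of all genes. Hsph1, which recharges HSP70 with nucleotide, had 2.86, 3.57 and 9.00 FPKM at ZT8 and 20.9, 39.1 and 32.2 FPKM at ZT12. The highest ZT8 mouse, replicate 3, was still below the lowest ZT12 mouse (log2 difference 2.46 ± 0.39, adjusted p = 0.00887). Hsp90aa1, the inducible cytosolic HSP90, had 19.9, 20.0 and 31.7 FPKM at ZT8 and 70.7, 174 and 95.6 FPKM at ZT12, with replicate 2 at ZT12 the highest (log2 difference 2.13 ± 0.34, adjusted p = 0.00907). Hspa1a and Hspa1b, a near-identical pair of inducible HSP70 genes whose reads may be split between them, moved alike. Hspa1b had 1.59, 2.15 and 7.49 FPKM at ZT8 and 10.1, 30.2 and 31.1 FPKM at ZT12, and Hspa1a had 0.427, 0.586 and 2.09 FPKM at ZT8 and 3.12, 8.78 and 10.2 FPKM at ZT12. In both, ZT8 replicate 3 came close to the lowest ZT12 mouse without crossing it, and the differences were 2.44 ± 0.57 (adjusted p = 0.0259) and 2.00 ± 0.44 (adjusted p = 0.0223). The constitutive HSP70 gene Hspa8 had 317, 363 and 443 FPKM at ZT8 and 768, 1224 and 911 FPKM at ZT12. Its ZT12 mice were all above its ZT8 mice (log2 difference 1.35 ± 0.19, adjusted p = 0.00735). Fkbp4, an HSP90 cochaperone (1.02 ± 0.15, adjusted p = 0.00786), and Dnajb1, an HSP40 (0.94 ± 0.13, adjusted p = 0.00675), rose too. Hsf2, a heat shock transcription factor, was the member that fell (−0.52 ± 0.07, adjusted p = 0.00696). Values past the threshold arose without ZT8 replicate 1 for Hspa1b (0.0907) and Hspa1a (0.0846) and without ZT8 replicate 2 for Hspa1b (0.0904) and Hspa1a (0.0819). Among these genes, calls ended without ZT12 replicate 2 for Hspa1b (0.0682) and Hspa1a (0.0599) and without ZT12 replicate 3 for Hspa1b (0.0737) and Hspa1a (0.062).

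The cold-inducible RNA-binding proteins went the other way. Cirbp, whose transcript is raised by mild cooling, had 24.4, 19.4 and 16.4 FPKM at ZT8 and 9.18, 5.52 and 7.73 FPKM at ZT12. No ZT12 mouse reached the lowest ZT8 mouse (log2 difference −1.32 ± 0.20, adjusted p = 0.00799). Rbm3, the other member, had 39.5, 34.1 and 38.3 FPKM at ZT8 and 31.5, 31.0 and 31.9 FPKM at ZT12, a small step without overlap (log2 difference −0.23 ± 0.07, adjusted p = 0.049). The adjusted p of Rbm3 was 0.164 without ZT8 replicate 1, 0.0525 without ZT8 replicate 2, 0.122 without ZT8 replicate 3, 0.0905 without ZT12 replicate 1, 0.095 without ZT12 replicate 2, 0.0897 without ZT12 replicate 3, 0.0701 with the replicate block, 0.117 with median-of-ratios scaling, 0.102 with quantile normalization, 0.286 with the spread of all 18 IH libraries and 0.059 with no filter on low values, past the threshold.

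Promoter sequences of the called clock and chaperone genes were read from RefSeq (GRCm38.p6), each holding 250 bases before and 50 after a transcript start of the gene, which need not be its outermost start, and 9981 of the 13215 genes had an entry. Where a gene had several entries the first listed was used. The windows of Hspb1 and Chordc1 lie at the outermost start in the RefSeq gene table, and those of Hsph1 and Ciart at starts 162 and 29 bases inside it. Each was searched on both strands for the heat shock element GAANNTTC, the E-box CACGTG, the ROR element TAGGTCA, the D-box TTATGTAA, the cAMP response element TGACGTCA and the hypoxia response element ACGTG, whose letters lie inside the E-box. The promoters below belong to 3 chaperone genes that rose and 1 clock repressor that fell, with heat shock elements and E-boxes in capitals. Hspb1 encodes the small heat shock protein HSP27 (1.79 ± 0.36, adjusted p = 0.0175), and Chordc1 a cochaperone of HSP90 (1.15 ± 0.17, adjusted p = 0.00799). Both are shown for their paired elements and were chosen with their values known, while Hsph1 and Ciart carry the large changes given with their families.
Hspb1 (chr5:135887669-135887968, plus strand): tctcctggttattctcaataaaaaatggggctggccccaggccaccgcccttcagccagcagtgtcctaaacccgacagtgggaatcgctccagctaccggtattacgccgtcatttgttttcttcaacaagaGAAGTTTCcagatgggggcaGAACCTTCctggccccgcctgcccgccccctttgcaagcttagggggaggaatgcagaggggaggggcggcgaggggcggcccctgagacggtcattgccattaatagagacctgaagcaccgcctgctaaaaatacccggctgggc
Chordc1 (chr9:18292017-18292316, plus strand): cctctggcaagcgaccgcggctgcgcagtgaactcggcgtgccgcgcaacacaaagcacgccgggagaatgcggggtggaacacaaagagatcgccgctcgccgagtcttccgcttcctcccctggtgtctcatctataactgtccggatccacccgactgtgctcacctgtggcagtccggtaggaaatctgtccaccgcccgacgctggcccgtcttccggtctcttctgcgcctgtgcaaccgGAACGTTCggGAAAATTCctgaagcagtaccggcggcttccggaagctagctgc
Hsph1 (chr5:149636287-149636586, minus strand): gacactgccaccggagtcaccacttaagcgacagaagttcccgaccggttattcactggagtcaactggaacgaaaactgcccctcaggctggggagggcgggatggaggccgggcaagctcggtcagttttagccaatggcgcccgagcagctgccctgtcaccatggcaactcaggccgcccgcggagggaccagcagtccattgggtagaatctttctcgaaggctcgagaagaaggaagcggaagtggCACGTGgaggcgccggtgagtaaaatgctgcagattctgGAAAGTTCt
Ciart (chr3:95882179-95882478, minus strand): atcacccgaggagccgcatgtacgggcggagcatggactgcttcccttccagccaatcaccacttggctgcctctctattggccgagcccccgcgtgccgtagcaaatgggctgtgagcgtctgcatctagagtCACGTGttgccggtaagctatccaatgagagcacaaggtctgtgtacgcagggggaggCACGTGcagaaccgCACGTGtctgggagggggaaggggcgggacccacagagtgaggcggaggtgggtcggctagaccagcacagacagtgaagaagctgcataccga
The heat shock element stood in 9 of the 18 promoters found for called chaperone genes (50.0%) and in 5.78% of all 9981. Among all genes that rose it stood in 55 of 801 promoters (6.87%), and among those that fell in 92 of 1641 (5.61%). Chaperone genes that were not called were not counted, so whether the element goes with the rise within that family was not tested. The E-box stood in 11.7% of the promoters of genes that rose, 11.5% of those that fell and 10.2% of all, and in 3 of 7 called clock repressors. In the same order, the hypoxia response element stood in 33.2%, 25.8% and 25.6%, the cAMP response element in 4.49%, 2.8% and 3.22%, the ROR element in 2.12%, 2.38% and 2.13% and the D-box in 0.624%, 0.548% and 0.611%. A match shows only that the letters are in the window. The adjusted p of Hspb1 was 0.0681 without ZT8 replicate 1 and 0.066 without ZT8 replicate 2, past the threshold.

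Genes of the unfolded protein response, which adjusts folding capacity in the endoplasmic reticulum, rose in the largest share of any list with over 5 members. Of 31 tested, 19 (61.3%) rose (9 without ZT8 replicate 1 or 2) and 1 fell, with a median of 0.63. Over all genes, 8.04% rose and 16.3% fell. Sdf2l1, part of a chaperone complex of the reticulum, had 6.40, 11.0 and 9.72 FPKM at ZT8 and 28.5, 77.9 and 39.3 FPKM at ZT12. Its groups were separate, with replicate 2 the highest at ZT12 (log2 difference 2.21 ± 0.37, adjusted p = 0.0102). Dnajc3, an HSP40 of the reticulum that restrains the kinase PERK, had 25.0, 25.6 and 26.9 FPKM at ZT8 and 43.5, 60.5 and 48.7 FPKM at ZT12, with no overlap (log2 difference 0.94 ± 0.12, adjusted p = 0.00572). Ero1lb, an oxidase that drives disulfide formation, had 10.7, 10.7 and 11.7 FPKM at ZT8 and 22.0, 23.8 and 20.0 FPKM at ZT12, and both groups were tight (log2 difference 0.93 ± 0.08, adjusted p = 0.00276). Creld2 belonged to the same list. The fall was that of Trib3, a target of the ATF4 arm. Atf4 itself (0.15 ± 0.12, adjusted p = 0.408), Asns (0.20 ± 0.47, adjusted p = 0.776) and Chac1 (0.10 ± 0.40, adjusted p = 0.878), other genes of that arm, did not pass the test.

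Many ribosome assembly factors rose and few ribosomal proteins were called, where 8.04% of all genes rose and 16.3% fell. Of 64 biogenesis genes, 27 (42.2%) rose (5 without ZT8 replicate 1, 9 without ZT8 replicate 2, 17 without ZT8 replicate 3 and 16 without ZT12 replicate 3) and 2 fell (1 without ZT8 replicate 1 or 3, 0 without ZT8 replicate 2 and 4 without ZT12 replicate 2), with a median of 0.38. Nop56, a core protein of the snoRNA particles that methylate ribosomal RNA, had 10.4, 11.2 and 12.0 FPKM at ZT8 and 20.0, 33.5 and 25.3 FPKM at ZT12. No values overlapped (log2 difference 1.13 ± 0.17, adjusted p = 0.00846), although its exons overlap Idh3b on the other strand. Rrp12, needed for export of the subunits, had 1.11, 1.05 and 1.40 FPKM at ZT8 and 2.69, 4.92 and 3.82 FPKM at ZT12, again without overlap (log2 difference 1.11 ± 0.17, adjusted p = 0.00853). Nop16 (0.85 ± 0.12, adjusted p = 0.00696) and the nucleolar GTPase gene Gtpbp4 (0.69 ± 0.09, adjusted p = 0.00573) rose as well. Of 79 cytosolic ribosomal proteins, 1 rose (0 without ZT8 replicate 1 or 2 or 3 or ZT12 replicate 2 or with rescaling to a common sum or with the replicate block, 7 without ZT12 replicate 3, 4 with median-of-ratios scaling and 2 with quantile normalization) and 0 fell, and their median was 0.09. That member was Rpl34, with 49.5, 54.0 and 50.1 FPKM at ZT8 and 57.2, 62.3 and 66.8 FPKM at ZT12 (log2 difference 0.27 ± 0.07, adjusted p = 0.0416). Its values did not overlap. The adjusted p of Rpl34 was 0.14 without ZT8 replicate 1, 0.0815 without ZT8 replicate 2, 0.102 without ZT8 replicate 3, 0.0812 without ZT12 replicate 2, 0.0915 without ZT12 replicate 3, 0.0582 with the replicate block, 0.0557 with rescaling to a common sum and 0.0545 with no filter on low values, past the threshold.

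**Figure D2:**
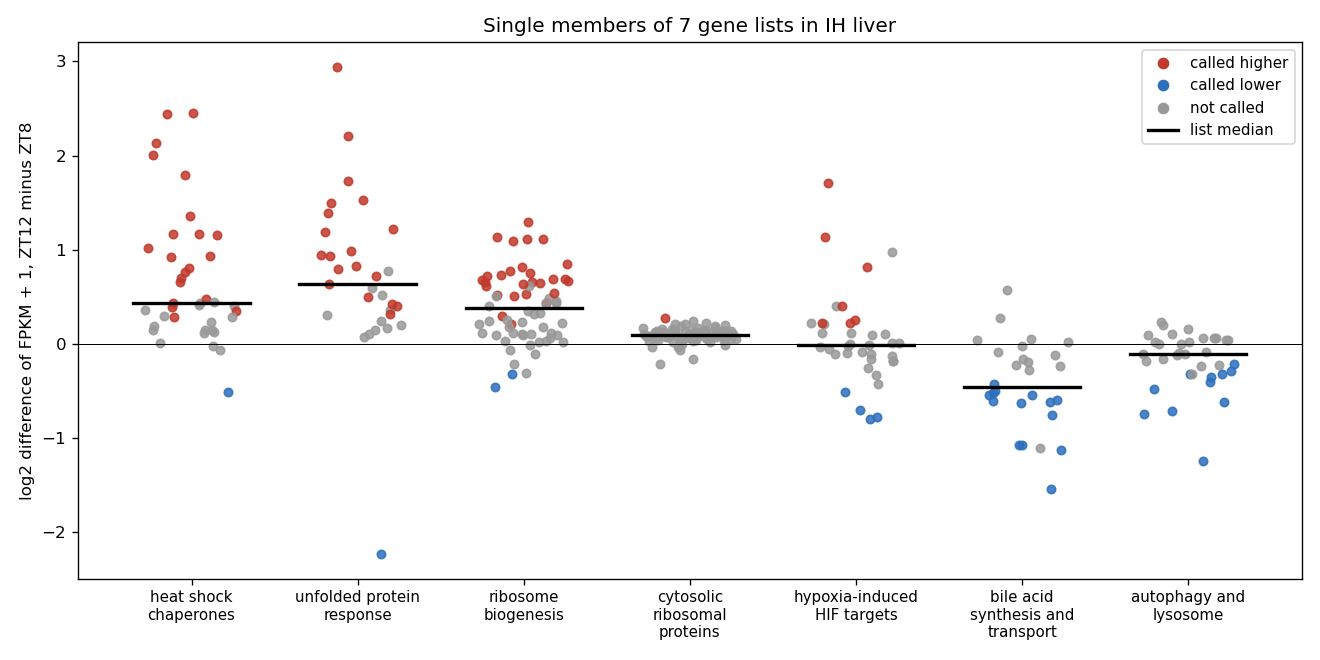
Log2 difference of FPKM + 1 between ZT12 and ZT8 in IH liver for each tested member of 7 gene lists, with members called higher in red, called lower in blue and not called in grey, and a black line for the list median. Heat shock, unfolded protein response and ribosome biogenesis genes spread upwards, while the 79 ribosomal protein genes lie in a narrow band near 0.

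Genes of oxygen sensing showed no common direction after the return to air. Of 8 HIF subunits and oxygen sensors, 1 rose (0 without ZT8 replicate 1 or 2 or ZT12 replicate 2 or 3 and 2 with median-of-ratios scaling or with quantile normalization) and 0 fell (1 without ZT12 replicate 1 or with rescaling to a common sum). The one that rose was Vhl, which marks HIF for destruction. It had 2.41, 3.17 and 3.52 FPKM at ZT8 and 4.26, 4.80 and 4.65 FPKM at ZT12, and the groups did not overlap (log2 difference 0.48 ± 0.12, adjusted p = 0.0288). Hif1a (−0.09 ± 0.08, adjusted p = 0.412) and Epas1 (0.09 ± 0.05, adjusted p = 0.209) did not pass the test. Of 37 HIF targets tested of 42, 7 rose (3 without ZT8 replicate 1 or 2 or ZT12 replicate 3 and 4 without ZT8 replicate 3 or ZT12 replicate 2 or with the replicate block) and 4 fell, with a median of −0.02, and 5 rose and 5 fell after rescaling to a common sum. Rises made up 12.5% of the subunits and sensors and 18.9% of the targets, beside 8.04% of all genes. Falls made up 0.0% and 10.8%, beside 16.3% of all genes. The strongest target was the transferrin receptor Tfrc, which imports iron and is a target both of HIF and of iron-regulatory proteins. It had 1.62, 1.73 and 1.68 FPKM at ZT8 and 6.89, 10.1 and 6.71 FPKM at ZT12, so that the lowest ZT12 mouse was far above all ZT8 mice (log2 difference 1.71 ± 0.14, adjusted p = 0.00257). P4ha1, a collagen prolyl hydroxylase, had 1.10, 1.36 and 2.1 FPKM at ZT8 and 3.98, 4.11 and 5.35 FPKM at ZT12, with no overlap (log2 difference 1.13 ± 0.16, adjusted p = 0.0076). Ndrg1 (−0.70 ± 0.11, adjusted p = 0.00814) and Narf (−0.80 ± 0.12, adjusted p = 0.00846), both induced by hypoxia in other cells, fell. The classical targets Vegfa (0.01 ± 0.10, adjusted p = 0.962) and Slc2a1 (−0.11 ± 0.16, adjusted p = 0.653) and Ldha, lactate dehydrogenase A (0.21 ± 0.13, adjusted p = 0.278), did not pass the test. The adjusted p of Vhl was 0.0696 without ZT8 replicate 1, 0.0807 without ZT8 replicate 2, 0.0684 without ZT12 replicate 2, 0.0754 without ZT12 replicate 3 and 0.0502 with no filter on low values, past the threshold.

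Of 21 iron and haem genes, 3 (14.3%) rose, Tfrc, Alas1 and Slc11a2, and 4 (19.0%) fell (0 without ZT8 replicate 1, 1 without ZT8 replicate 2 and 2 without ZT12 replicate 3), beside 8.04% and 16.3% of all genes, with a median of −0.16. Alas1, the first and rate-limiting enzyme of haem synthesis, had 120.2, 125 and 84.4 FPKM at ZT8 and 452, 354 and 311 FPKM at ZT12. Its ZT12 mice were all above its ZT8 mice (log2 difference 1.76 ± 0.19, adjusted p = 0.00442). Slc11a2 encodes the ferrous iron transporter DMT1 (0.83 ± 0.11, adjusted p = 0.00605), and Ireb2, an iron-regulatory protein that stabilises Tfrc messenger RNA, fell (−0.42 ± 0.07, adjusted p = 0.0109). Hamp, the gene of the iron hormone hepcidin, had a difference of −0.19 ± 0.21 (adjusted p = 0.533). The adjusted p of Ireb2 was 0.0542 without ZT8 replicate 1 and 0.052 without ZT8 replicate 2, past the threshold.

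Of 19 genes of glucose and fructose sensing and liver glycolysis, 4 rose (1 without ZT8 replicate 1 or 2) and 5 fell (1 without ZT8 replicate 1 and 2 without ZT8 replicate 2). The fructose carrier Slc2a5 fell (−1.07 ± 0.13, adjusted p = 0.00573), and Tkfc, triokinase, rose (0.67 ± 0.12, adjusted p = 0.0137), with exons that overlap Ddb1 and Cyb561a3. Of 26 glycogen genes, 1 rose, Ppp1r3b (2 without ZT12 replicate 1 and 3 with quantile normalization), and 8 fell (3 without ZT8 replicate 1 or 2 and 5 without ZT8 replicate 3). Stbd1, which anchors glycogen to membranes, had 67.3, 70.9 and 66.1 FPKM at ZT8 and 33.6, 38.5 and 37.4 FPKM at ZT12, the groups lying well apart (log2 difference −0.88 ± 0.07, adjusted p = 0.00244). Gyg, the glycogenin primer of synthesis (−0.65 ± 0.08, adjusted p = 0.00551), and Epm2a, the glycogen phosphatase laforin (−0.57 ± 0.10, adjusted p = 0.0122), fell. Glycogen synthase Gys2 (−0.13 ± 0.09, adjusted p = 0.329) and liver phosphorylase Pygl (0.19 ± 0.13, adjusted p = 0.333) did not pass. The adjusted p of Tkfc was 0.0525 without ZT8 replicate 1 and 0.0523 without ZT8 replicate 2, past the threshold.

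Of 20 gluconeogenesis genes, 1 rose (2 with median-of-ratios scaling or with quantile normalization) and 5 fell (0 without ZT8 replicate 1 or 2, 3 without ZT8 replicate 3 or ZT12 replicate 1 or with median-of-ratios scaling or with quantile normalization and 1 with the replicate block), with a median of −0.22. The rate-limiting Pck1 had 1071, 1097 and 1291 FPKM at ZT8 and 619, 495 and 1243 FPKM at ZT12. Replicate 3 at ZT12 lay with the ZT8 mice, so the groups overlapped (log2 difference −0.66 ± 0.32, adjusted p = 0.174). G6pc, which releases free glucose, had 84.2, 105 and 179.6 FPKM at ZT8 and 79.2, 188 and 300.4 FPKM at ZT12, with broad overlap (log2 difference 0.49 ± 0.50, adjusted p = 0.502). Fbp1, fructose bisphosphatase, had a difference of 0.08 ± 0.07 (adjusted p = 0.403). Those that fell included the glucagon receptor Gcgr (−0.25 ± 0.06, adjusted p = 0.0239), the dicarboxylate carrier Slc25a10 (−0.48 ± 0.09, adjusted p = 0.0159) and mitochondrial Pck2 (−0.21 ± 0.05, adjusted p = 0.024), while the glycolytic isomerase Gpi1 rose (0.54 ± 0.08, adjusted p = 0.00799). In the CREB pathway, through which glucagon and catecholamines act, 2 of 27 rose (1 without ZT8 replicate 1 or 3 or ZT12 replicate 2 and 0 without ZT8 replicate 2) and 7 fell (1 without ZT8 replicate 1, 2 without ZT8 replicate 2 and 4 without ZT12 replicate 3 or with quantile normalization). The phosphodiesterase genes Pde4c (−0.85 ± 0.11, adjusted p = 0.00641) and Pde4b (−0.71 ± 0.16, adjusted p = 0.0223) and the kinase subunit Prkar1a (−0.26 ± 0.05, adjusted p = 0.0146) fell, and Prkar2a rose (0.46 ± 0.08, adjusted p = 0.0107). Creb1 had a difference of 0.15 ± 0.05 (adjusted p = 0.0857). An adjusted p past 0.05 arose without ZT8 replicate 1 for Gcgr (0.0868), Slc25a10 (0.0672), Pck2 (0.0852), Pde4b (0.0855) and Prkar1a (0.0688) and without ZT8 replicate 2 for Gcgr (0.101), Slc25a10 (0.0547), Pck2 (0.0879), Prkar1a (0.0687) and Prkar2a (0.0516). Significance was lost without ZT8 replicate 3 for Pck2 (0.0522) and Pde4b (0.0607) and without ZT12 replicate 3 for Gcgr (0.0546) and Pck2 (0.0701). These tests missed 0.05 with the replicate block for Gcgr (0.0514) and Pck2 (0.0646) and with quantile normalization for Gcgr (0.066). Tests gave over 0.05 with the spread of all 18 IH libraries for Pck2 (0.0749) and Pde4b (0.0699). The test was passed without ZT12 replicate 3 (−1.05, adjusted p = 0.0172) for Pck1.

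Of 27 genes of insulin and growth hormone action, 3 rose (1 without ZT8 replicate 1) and 4 fell, among them Rgs16. Grb14, an adaptor that inhibits the insulin receptor in liver, had 33.1, 31.9 and 30.7 FPKM at ZT8 and 19.5, 18.5 and 18.5 FPKM at ZT12, with tight groups far apart (log2 difference −0.73 ± 0.06, adjusted p = 0.00244). The insulin receptor gene Insr fell (−0.49 ± 0.07, adjusted p = 0.00849) and Grb10, a related inhibitor, rose (0.63 ± 0.10, adjusted p = 0.00848). Of 24 glucocorticoid receptor genes and targets, 1 rose (4 without ZT12 replicate 1 and 2 without ZT12 replicate 2 or with the replicate block) and 0 fell (2 without ZT12 replicate 3 and 1 with the replicate block). Rises made up 4.17% of this list and falls 0.0%, beside 8.04% and 16.3% of all genes. The one that rose was the gene of the HSP90 cochaperone Fkbp5, with 6.74, 11.8 and 10.6 FPKM at ZT8 and 21.2, 20.6 and 32.2 FPKM at ZT12 and no overlap (log2 difference 1.26 ± 0.24, adjusted p = 0.0146). Of 27 immediate early genes, 0 rose (1 without ZT8 replicate 1) and 2 fell (1 without ZT8 replicate 1 or ZT12 replicate 1 or 2 or 3, 0 without ZT8 replicate 2 and 4 without ZT8 replicate 3). The falls were those of Klf10 and Junb, an AP-1 subunit. Junb had 45.6, 19.3 and 11.4 FPKM at ZT8 and 7.11, 6.21 and 5.74 FPKM at ZT12, with a steep spread at ZT8 and no overlap (log2 difference −1.63 ± 0.44, adjusted p = 0.0386). The adjusted p was over 0.05 without ZT8 replicate 1 for Klf10 (0.0833) and without ZT8 replicate 2 for Klf10 (0.0728) and Junb (0.0966). Calls were lost without ZT12 replicate 1 for Junb (0.0701) and without ZT12 replicate 2 for Junb (0.0861). The test was no longer passed without ZT12 replicate 3 for Junb (0.0959) and with no filter on low values for Junb (0.0687).

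Of 27 genes in fatty acid synthesis, 5 rose (3 without ZT8 replicate 1 and 8 with the replicate block) and 5 fell (1 without ZT8 replicate 1 or 2, 2 without ZT8 replicate 3 and 3 without ZT12 replicate 3). Elovl6, the elongase of palmitate, had 11.7, 17.0 and 11.2 FPKM at ZT8 and 29.8, 29.6 and 32.2 FPKM at ZT12, with a clear gap (log2 difference 1.16 ± 0.15, adjusted p = 0.00583). Elovl5, which elongates polyunsaturated chains, had 170.2, 177 and 113 FPKM at ZT8 and 56.1, 67.3 and 46.5 FPKM at ZT12 and moved the other way without overlap (log2 difference −1.41 ± 0.20, adjusted p = 0.00756). Aacs, which uses ketone bodies for lipid (1.33 ± 0.21, adjusted p = 0.00855), and Agpat2, an enzyme of triglyceride assembly (0.89 ± 0.12, adjusted p = 0.00611), rose. Fatty acid synthase Fasn had 63.7, 102 and 47.2 FPKM at ZT8 and 93.5, 121 and 68.5 FPKM at ZT12, with overlapping groups (log2 difference 0.44 ± 0.31, adjusted p = 0.335). Of 27 cholesterol genes, 0 rose and 5 fell (2 without ZT8 replicate 1 or 2, 8 without ZT8 replicate 3, 3 without ZT12 replicate 3 and 11 with the replicate block). Scap, which escorts SREBP out of the reticulum, had 34.4, 34.3 and 31.4 FPKM at ZT8 and 18.2, 16.0 and 16.7 FPKM at ZT12, at ZT12 well below every ZT8 mouse (log2 difference −0.93 ± 0.07, adjusted p = 0.00244). Mevalonate kinase Mvk (−0.84 ± 0.10, adjusted p = 0.00524) and the late enzymes Msmo1 (−1.07 ± 0.21, adjusted p = 0.0161) and Sc5d (−0.80 ± 0.17, adjusted p = 0.0205) fell. The threshold was missed without ZT8 replicate 1 for Msmo1 (0.0639) and Sc5d (0.0685) and without ZT8 replicate 2 for Msmo1 (0.0647) and Sc5d (0.0755). Adjusted p values over 0.05 were found without ZT12 replicate 3 for Sc5d (0.051). The test was passed with the replicate block (0.44, adjusted p = 0.0309) for Fasn.

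Bile acid genes fell in a larger share than the other metabolic lists. Of 28, 0 rose (1 without ZT8 replicate 3) and 14 fell, with a median of −0.46. Hsd3b7, an early enzyme of bile acid synthesis, had 200.0, 189 and 176 FPKM at ZT8 and 77.3, 96.1 and 83.8 FPKM at ZT12, the groups lying apart (log2 difference −1.13 ± 0.09, adjusted p = 0.00257). The organic anion transporter Slco1a4 had 22.3, 23.6 and 23.5 FPKM at ZT8 and 9.49, 9.91 and 11.9 FPKM at ZT12, likewise apart (log2 difference −1.08 ± 0.09, adjusted p = 0.00257). The export pump Abcc3 (−0.61 ± 0.08, adjusted p = 0.00566) and the racemase Amacr (−0.52 ± 0.06, adjusted p = 0.00566) fell, while Cyp7a1, the rate-limiting enzyme, did not pass (−0.28 ± 0.15, adjusted p = 0.207). Of 41 drug-metabolising P450 genes and regulators, 2 rose, Alas1 among them (1 without ZT8 replicate 1 or 3 or ZT12 replicate 2 or 3), and 8 fell (0 without ZT8 replicate 1, 1 without ZT8 replicate 2, 4 without ZT8 replicate 3 or with median-of-ratios scaling and 5 without ZT12 replicate 1 or 2 or 3). Those that fell included the xenobiotic receptor genes Nr1i3 (−0.39 ± 0.07, adjusted p = 0.0124) and Ahr (−0.78 ± 0.17, adjusted p = 0.0218) and Cyp2c54 (−0.51 ± 0.11, adjusted p = 0.0216), a member of a family of near-identical genes. Some of these calls ended without ZT8 replicate 1 for Nr1i3 (0.0599), Ahr (0.0733) and Cyp2c54 (0.0805) and without ZT8 replicate 2 for Ahr (0.0712) and Cyp2c54 (0.064). The threshold of 0.05 was not met without ZT8 replicate 3 for Ahr (0.0615) and Cyp2c54 (0.0606) and without ZT12 replicate 2 for Ahr (0.0537) and Cyp2c54 (0.0534). Values past the threshold arose with the spread of all 18 IH libraries for Nr1i3 (0.0776) and Cyp2c54 (0.0714).

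Of 46 genes of PPARα, fatty acid oxidation and ketogenesis, 2 rose (1 without ZT8 replicate 1 or 2 or 3 or ZT12 replicate 3 or with the replicate block) and 11 fell (5 without ZT8 replicate 1, 6 without ZT8 replicate 2, 17 without ZT12 replicate 2 and 18 with the replicate block), with a median of −0.31. Plin5, a lipid droplet protein of oxidative cells, was one of those that rose, with 10.3, 9.61 and 12.7 FPKM at ZT8 and 23.8, 26.0 and 27.7 FPKM at ZT12 and the groups lying apart (log2 difference 1.18 ± 0.11, adjusted p = 0.00345). Decr2, which handles unsaturated fatty acids in peroxisomes (−0.64 ± 0.07, adjusted p = 0.00402), Bdh1, the last enzyme of ketogenesis (−0.75 ± 0.09, adjusted p = 0.00572), and Etfdh, which passes electrons of fat oxidation to the respiratory chain (−0.45 ± 0.06, adjusted p = 0.00672), fell. Cpt2 had a difference of 0.14 ± 0.08 (adjusted p = 0.227). Of 54 genes of amino acid catabolism and the urea cycle, 1 rose (0 without ZT8 replicate 1 or 2) and 19 fell (7 without ZT8 replicate 1 or 2 and 12 without ZT12 replicate 1), with a median of −0.27. Amdhd1, of histidine breakdown, had 93.6, 88.4 and 65.3 FPKM at ZT8 and 31.6, 24.0 and 29.2 FPKM at ZT12 (log2 difference −1.50 ± 0.16, adjusted p = 0.00425). Agxt, which detoxifies glyoxylate, had 184, 179.8 and 161 FPKM at ZT8 and 96.8, 77.5 and 87.1 FPKM at ZT12 (log2 difference −1.002 ± 0.10, adjusted p = 0.00381). Both genes were lower in each ZT12 mouse than in any ZT8 mouse. Cbs, of the transsulfuration route (−0.87 ± 0.09, adjusted p = 0.00442), and the glutamine transporter Slc38a3 (−0.94 ± 0.11, adjusted p = 0.00513) also fell.

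Of 35 autophagy and lysosome genes, 0 rose (1 without ZT12 replicate 3 and 2 with median-of-ratios scaling) and 11 fell (6 without ZT8 replicate 1 and 5 without ZT8 replicate 2). Gabarapl1, which is attached to autophagosome membranes, had 237, 208 and 202 FPKM at ZT8 and 108, 69.0 and 97.9 FPKM at ZT12, with no overlap (log2 difference −1.25 ± 0.17, adjusted p = 0.00643). Sesn1, an inhibitor of mTORC1 (−0.72 ± 0.09, adjusted p = 0.00551), the lysosomal protease Ctsl (−0.62 ± 0.08, adjusted p = 0.00611) and the cargo receptor Nbr1 (−0.41 ± 0.05, adjusted p = 0.00579) fell. Of 20 genes of NAD metabolism and sirtuins, 3 rose (1 without ZT8 replicate 1) and 7 fell (3 without ZT8 replicate 1 or 2). Nmnat3, which makes NAD in mitochondria, had 4.98, 4.99 and 4.21 FPKM at ZT8 and 1.39, 1.13 and 1.62 FPKM at ZT12, the groups lying far apart (log2 difference −1.27 ± 0.10, adjusted p = 0.00244). NAD synthetase Nadsyn1 (−0.61 ± 0.06, adjusted p = 0.00381) and the deacylase Sirt5 (−0.72 ± 0.11, adjusted p = 0.00813) fell, and Nnmt, which methylates nicotinamide, rose (1.40 ± 0.21, adjusted p = 0.00776).

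Set against all genes, of which 8.04% rose and 16.3% fell, the share of falls was 50.0% in bile acid genes, 35.2% in amino acid genes, 35.0% in NAD genes, 31.4% in autophagy genes and 30.8% in glycogen genes. It was 19.5% in P450 genes, 18.5% in both fatty acid and cholesterol synthesis, 19.0% in iron genes and 15.6% in the TCA cycle, which is near the share of all genes. Glucose genes (26.3%), CREB genes (25.9%), gluconeogenesis (25.0%), interferon-stimulated genes (24.3%) and PPARα genes (23.9%) lay between. Insulin and growth hormone genes (14.8%), NRF2 targets (11.4%), HIF targets (10.8%), proteasome genes (8.51%), cell cycle genes (8.11%) and immediate early genes (7.41%) were below the share of all genes. The share of rises was 21.1% in glucose genes, 18.9% in HIF targets, 18.5% in fatty acid synthesis, 16.1% in acute-phase genes, 15.0% in NAD genes, 14.3% in iron genes, 11.1% in insulin and growth hormone genes and 8.11% in cell cycle genes. Over the 3 other scalings, heat shock had 21 to 25 rises, the unfolded protein response 19 to 21 and ribosome biogenesis 27 to 33. Falls numbered 13 to 14 in bile acid genes and 14 to 21 in amino acid genes, and they dropped to as few as 4 in P450 and CREB genes, 3 in gluconeogenesis and 2 in the TCA cycle and the proteasome.

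**Figure D3:**
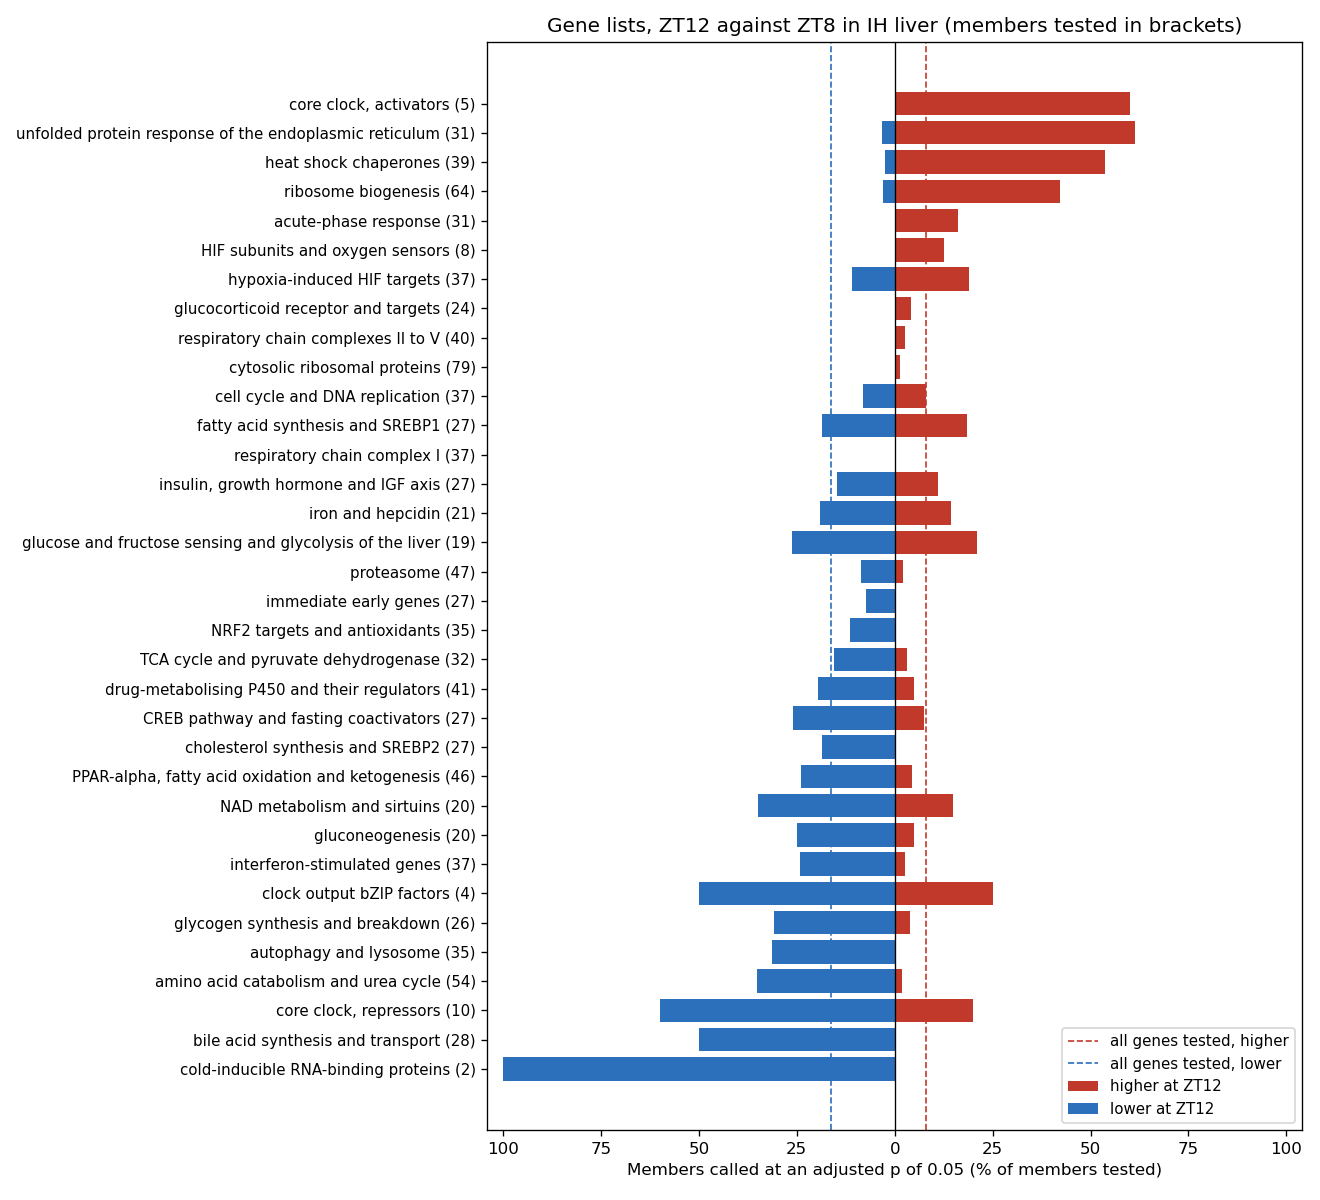
Members called higher (red, to the right) or lower (blue, to the left) at ZT12 in IH liver, as a percentage of the members tested in each of 34 gene lists, with the number tested in brackets. Dashed lines mark the share of all 13215 genes called in each direction, 8.04% higher and 16.3% lower. Bars for the activators of the clock, the unfolded protein response, heat shock and ribosome biogenesis reach furthest right.

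The respiratory chain genes were almost never called, where 24.4% of all genes were called in either direction. Of 37 complex I genes 0 were called (median 0.01), or 2 rose with median-of-ratios scaling or quantile normalization, and of 40 genes of complexes II to V 1 rose, cytochrome c (Cycs). It had 37.2, 35.9 and 36.0 FPKM at ZT8 and 46.4, 49.8 and 45.8 FPKM at ZT12, without overlap (log2 difference 0.37 ± 0.06, adjusted p = 0.00846). Cox6a1 had a difference of −0.01 ± 0.06 (adjusted p = 0.921). Of 32 genes of the TCA cycle and pyruvate dehydrogenase, 1 rose (0 without ZT8 replicate 1 or 2, 2 without ZT12 replicate 1 and 3 with median-of-ratios scaling or with quantile normalization) and 5 fell (0 without ZT8 replicate 1 or 2 or with the replicate block, 2 without ZT8 replicate 3 or with median-of-ratios scaling, 3 without ZT12 replicate 1 or 3 or with quantile normalization and 1 without ZT12 replicate 2). Fumarase Fh1 rose (0.30 ± 0.06, adjusted p = 0.0148). The falls included Idh3g (−0.28 ± 0.07, adjusted p = 0.0271), a subunit of isocitrate dehydrogenase, and Pdk1 (−0.51 ± 0.12, adjusted p = 0.0293) and Pdk2 (−0.77 ± 0.19, adjusted p = 0.0336), kinases that shut pyruvate dehydrogenase. Idh3a did not pass (0.18 ± 0.08, adjusted p = 0.138). Of 35 NRF2 targets and antioxidant genes, 0 rose (1 without ZT12 replicate 3 or with median-of-ratios scaling or with quantile normalization or with the replicate block) and 4 fell (1 without ZT8 replicate 1 or 2). Nfe2l2, which encodes NRF2, had 30.6, 36.4 and 34.6 FPKM at ZT8 and 19.1, 23.6 and 19.9 FPKM at ZT12 and no overlap (log2 difference −0.67 ± 0.10, adjusted p = 0.0079). Gstm4 (−1.11 ± 0.19, adjusted p = 0.0117), Nqo1 (−0.58 ± 0.14, adjusted p = 0.0276) and the catalase gene were the others, and the call of catalase was also lost without ZT8 replicate 1 or ZT8 replicate 2. Among these genes, calls ended without ZT8 replicate 1 for Fh1 (0.0688), Idh3g (0.103), Pdk1 (0.104), Pdk2 (0.106), Gstm4 (0.0521) and Nqo1 (0.0516) and without ZT8 replicate 2 for Fh1 (0.0579), Idh3g (0.092), Pdk1 (0.103), Pdk2 (0.111), Gstm4 (0.0521) and Nqo1 (0.0785). An adjusted p past 0.05 arose without ZT8 replicate 3 for Pdk2 (0.0565) and without ZT12 replicate 1 for Pdk1 (0.0645) and Nqo1 (0.0591). Significance was lost without ZT12 replicate 2 for Idh3g (0.0529), Pdk1 (0.0726) and Nqo1 (0.0539) and without ZT12 replicate 3 for Nqo1 (0.0737). These tests missed 0.05 with the replicate block for Idh3g (0.0506), Pdk1 (0.0609) and Pdk2 (0.056) and with median-of-ratios scaling for Idh3g (0.0561). Tests gave over 0.05 with the spread of all 18 IH libraries for Pdk1 (0.0557) and with no filter on low values for Pdk2 (0.059) and Nqo1 (0.0502).

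Of 37 interferon-stimulated genes, 1 rose (0 without ZT8 replicate 1 or 2 or ZT12 replicate 1 or 2 or with the replicate block, 2 without ZT12 replicate 3 or with median-of-ratios scaling and 3 with quantile normalization) and 9 fell (3 without ZT8 replicate 1 and 1 without ZT8 replicate 2). Ifih1 (−0.50 ± 0.07, adjusted p = 0.00696) and Ddx58 (−0.49 ± 0.08, adjusted p = 0.0106), sensors of viral RNA, and the GTPase genes Iigp1 (−0.55 ± 0.10, adjusted p = 0.0147) and Gbp3 (−0.33 ± 0.06, adjusted p = 0.0148) fell. Of 47 proteasome genes, 1 rose (0 without ZT8 replicate 1 or 2 or with the replicate block and 2 with median-of-ratios scaling or with quantile normalization) and 4 fell (1 without ZT8 replicate 1 or 2 or ZT12 replicate 3 or with the replicate block and 2 without ZT8 replicate 3 or ZT12 replicate 1 or with median-of-ratios scaling or with quantile normalization). The activator Psme3 rose (0.40 ± 0.09, adjusted p = 0.0261). Psmb9, the interferon-induced subunit of the immunoproteasome, had 12.6, 15.4 and 9.39 FPKM at ZT8 and 5.81, 5.16 and 5.26 FPKM at ZT12, with no overlap (log2 difference −1.05 ± 0.16, adjusted p = 0.0085), and its exons overlap Tap1 on the other strand. Psma5 (−0.34 ± 0.09, adjusted p = 0.0377) and the assembly gene Psmg2 (−0.29 ± 0.08, adjusted p = 0.0378) moved less. Of 4 T and NK cell markers tested 3 fell over these hours, and of 4 B cell markers tested 2. All 8 T and NK cell genes with values, tested or not, summed to 1.40 to 1.76 FPKM at ZT8 and 0.426 to 0.827 FPKM at ZT12. The 5 B cell genes with values summed to 0.961 to 1.13 FPKM at ZT8 and 0.400 to 0.650 FPKM at ZT12. The part of these cells in the falls of immune genes was not tested. The adjusted p was over 0.05 without ZT8 replicate 1 for Ddx58 (0.0522), Iigp1 (0.0515), Psme3 (0.0889), Psma5 (0.125) and Psmg2 (0.116) and without ZT8 replicate 2 for Ddx58 (0.052), Iigp1 (0.0535), Gbp3 (0.0626), Psme3 (0.095), Psma5 (0.0898) and Psmg2 (0.0814). Calls were lost without ZT8 replicate 3 for Psma5 (0.0907) and Psmg2 (0.0624) and without ZT12 replicate 1 for Psma5 (0.0672) and Psmg2 (0.0821). The test was no longer passed without ZT12 replicate 2 for Psmg2 (0.052) and without ZT12 replicate 3 for Psme3 (0.064), Psma5 (0.0606) and Psmg2 (0.0851). The threshold was missed with the replicate block for Psme3 (0.0513), Psma5 (0.0637) and Psmg2 (0.0792) and with median-of-ratios scaling for Psmg2 (0.0673). Adjusted p values over 0.05 were found with quantile normalization for Psmg2 (0.0569) and with no filter on low values for Psma5 (0.0554) and Psmg2 (0.0502).

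Of 31 acute-phase genes, 5 rose (3 without ZT8 replicate 1 or 2 or 3) and 0 fell (1 without ZT12 replicate 2 or 3). Serpina3k, an abundant secreted serpin with near-identical neighbours, had 5037, 5237 and 5529 FPKM at ZT8 and 8001, 8038 and 7972 FPKM at ZT12, with no overlap (log2 difference 0.60 ± 0.09, adjusted p = 0.00779). The interleukin-1 receptor Il1r1 (0.54 ± 0.06, adjusted p = 0.00484), Orm3 (1.27 ± 0.20, adjusted p = 0.00855) and the metalloreductase Steap4 (1.67 ± 0.40, adjusted p = 0.0287) rose too. Serum amyloid Saa1, a strongly inducible gene of the list named here after its values were seen, had 25.2, 53.1 and 21.9 FPKM at ZT8 and 106, 2469.7 and 73.4 FPKM at ZT12. Replicate 2 at ZT12 stood far above all other mice and the test was not passed (log2 difference 3.08 ± 1.28, adjusted p = 0.123). Of 37 cell cycle genes, 3 rose (0 without ZT8 replicate 1 or 2 or 3 or ZT12 replicate 3 or with the replicate block and 1 without ZT12 replicate 1) and 3 fell (0 without ZT8 replicate 1 or 2 and 1 without ZT8 replicate 3 or ZT12 replicate 3). The mitotic brake Wee1 (−0.67 ± 0.13, adjusted p = 0.0153), the inhibitor Cdkn1b (−0.30 ± 0.06, adjusted p = 0.0213) and the replication factor Mcm3 (−0.32 ± 0.08, adjusted p = 0.0291) fell, and the phosphatase gene Cdc25a rose (0.24 ± 0.06, adjusted p = 0.0253). Some of these calls ended without ZT8 replicate 1 for Steap4 (0.0905), Wee1 (0.0636), Cdkn1b (0.0877), Mcm3 (0.0571) and Cdc25a (0.0939) and without ZT8 replicate 2 for Steap4 (0.092), Wee1 (0.0631), Cdkn1b (0.0618), Mcm3 (0.0947) and Cdc25a (0.0703). The threshold of 0.05 was not met without ZT8 replicate 3 for Steap4 (0.0669), Cdkn1b (0.0525), Mcm3 (0.0659) and Cdc25a (0.0687) and without ZT12 replicate 1 for Mcm3 (0.0645) and Cdc25a (0.0505). Values past the threshold arose without ZT12 replicate 3 for Cdkn1b (0.0531), Mcm3 (0.0758) and Cdc25a (0.0572) and with the replicate block for Cdc25a (0.065). Among these genes, calls ended with quantile normalization for Serpina3k (0.0628) and with the spread of all 18 IH libraries for Il1r1 (0.407), Orm3 (0.0567), Steap4 (0.0868) and Cdc25a (0.117). An adjusted p past 0.05 arose with no filter on low values for Steap4 (0.0531).

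Control liver gives the same hours without hypoxia. Control ZT12 replicate 2 stood apart, with summed FPKM of 808274 against 561964 to 626371 in the other 35 libraries, a lowest correlation of 0.949 with its group and neutrophil markers that summed to 241 FPKM against at most 3.10 in the IH libraries, so control steps are given with and without it. With it, 0 genes passed an adjusted p of 0.05 in control and 1288 had an unadjusted P under 0.05. Without it, 11 were higher and 14 lower. The control samples are independent of the IH samples that defined the called genes. Of the 1063 genes that rose in IH, 769 (72.3%) were above 0 in control against 39.5% of all genes, and 977 (91.9%) against 52.5% without control ZT12 replicate 2. Of the 2160 that fell, 1874 (86.8%) were below 0 in control against 60.3% of all genes, and 1773 (82.1%) against 47.4% without that library. An unadjusted P under 0.05 in the same direction was reached in control by 199 of the genes that rose (18.7%, against 3.69% of all genes) and by 492 of those that fell (22.8%, against 6.06%). The called genes were chosen by their IH step, so the medians are a description. The genes that rose had a median of 0.43 in IH and of 0.14 in control, or 0.22 without replicate 2. Those that fell had −0.41 in IH, −0.29 in control and −0.17 without that replicate.

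For single genes the control steps ran from nearly equal to the IH step to the opposite direction. Nr1d1 had a control difference of −2.44 ± 0.26 (−2.19 without control ZT12 replicate 2) beside −2.58 ± 0.26 in IH, and the difference of Cry1 was 1.07 ± 0.20 (1.06) beside 1.08 ± 0.18. Both genes had steps of like size in the 2 conditions. Rgs16 −1.82 ± 0.39 (−1.43) and Serpina4-ps1 1.82 ± 0.95 (2.57) had smaller control steps, with −2.95 ± 0.20 and 3.97 ± 0.27 in IH. In Creld2, with 1.30 ± 0.36 (1.03), Hsph1 1.41 ± 0.33 (1.30) and Cirbp −0.60 ± 0.32 (−0.27) the control value was also nearer 0 than the IH value. Ciart had −0.06 ± 0.37 (0.34) and Per3 −0.15 ± 0.28 (0.09) in control, where IH gave −1.44 ± 0.30 and −0.97 ± 0.15. The test of the difference between the steps gave an unadjusted P of 0.0223 for Ciart, 0.0343 for Per3, 0.0185 for Creld2, 0.0356 for Rgs16, 0.0739 for Serpina4-ps1, 0.0837 for Hsph1 and 0.106 for Cirbp, and 0 of them passed after adjustment over all genes. These P values include control ZT12 replicate 2. Without it, both Cirbp and Rbm3 had an unadjusted P under 0.05 with the lower IH step, as had 9.61% of all genes.

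**Figure D4:**
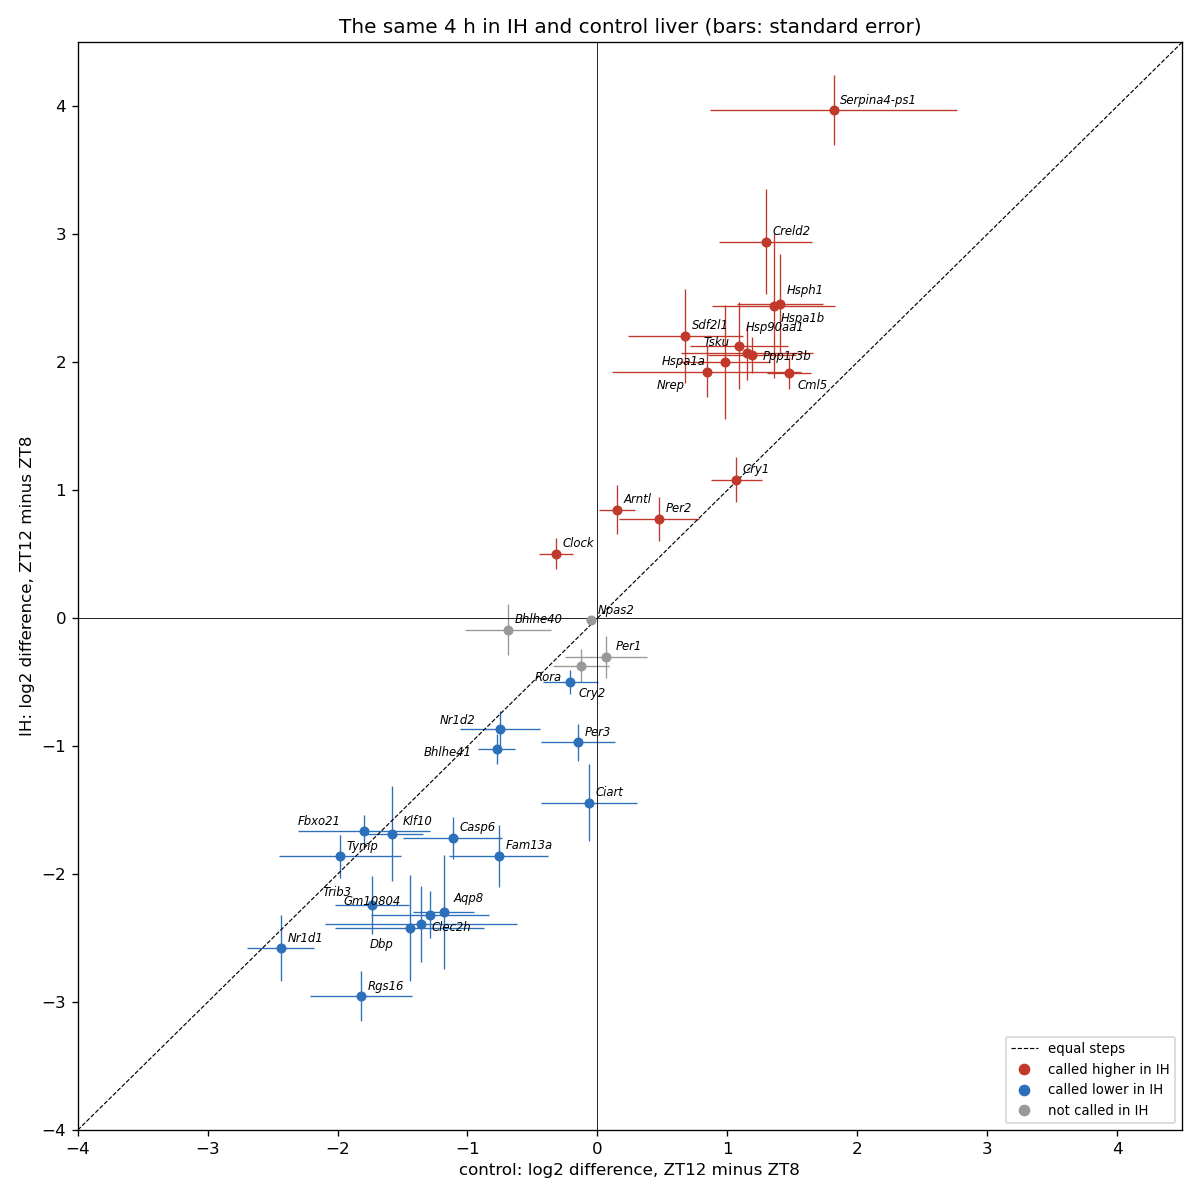
Log2 difference of FPKM + 1 between ZT12 and ZT8 in IH liver (vertical axis) and in control liver (horizontal axis, all 6 libraries) for genes with the largest changes in IH and core clock genes, with bars for the standard error and a dashed line where both steps are equal. Nr1d1 and Cry1 lie near the line, while Serpina4-ps1, Creld2 and Rgs16 lie further from 0 in IH.

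Whether the step differed between IH and control was tested directly as the interaction of condition and time point over 12 libraries. In limma 0 genes passed an adjusted p of 0.05 (the smallest was 0.255), and 1092 (8.26%) had an unadjusted P under 0.05, 429 with the higher step in IH (3.25%) and 663 with the lower (5.02%). With array weights 0 passed as well, and with the spread of all 36 libraries 3 did, Clock with the higher IH step and Gm15421 and Pbx4 with the lower. The median standard error over all genes was 0.20 for this difference and 0.08 for the IH step. The lack of calls therefore does not show that the steps were equal. The smallest P values in the 12 libraries are given as a ranking. Ero1lb had control values of 10.5, 10.8 and 11.8 FPKM at ZT8 and 11.1, 9.52 and 13.7 at ZT12, where IH rose, and the difference of the steps was 0.89 ± 0.18, unadjusted P = 0.000423. Control Clock went from 1.77, 1.75 and 1.60 FPKM to 1.00, 1.02 and 1.52, opposite to IH, and its difference was 0.82 ± 0.18, unadjusted P = 0.000758. Gfod2 (0.87 ± 0.19, unadjusted P = 0.000858), Mical2 (0.71 ± 0.16, unadjusted P = 0.00087) and Mid1 (0.80 ± 0.18, unadjusted P = 0.000887) followed on the side of the higher IH step. On the other side, Pbx4, a homeobox gene, had 0.554, 0.931 and 0.716 FPKM at ZT8 and 0.260, 0.223 and 0.226 FPKM at ZT12 in IH and 0.200, 0.262 and 0.348 and 0.666, 0.432 and 0.598 in control, a difference of the steps of −0.78 ± 0.12, unadjusted P = 3.9e-05. Atp6v0d2, a proton pump subunit, had 1.88, 2.68 and 1.72 FPKM at ZT8 and 0.306, 0.557 and 0.871 FPKM at ZT12 in IH and 0.606, 0.935 and 0.598 and 1.12, 1.61 and 1.09 in control (−1.38 ± 0.22, unadjusted P = 7.0e-05). In both genes the groups separated in opposite directions in IH and control, at levels of a few FPKM or less. Gm15421 (−0.67 ± 0.11, unadjusted P = 5.3e-05), whose exons overlap those of Orc5, Msh5 (−0.42 ± 0.07, unadjusted P = 7.7e-05) and Tgfbr3l (−1.11 ± 0.19, unadjusted P = 0.000129) completed the ranking. Without control ZT12 replicate 2 the unadjusted P was 0.000207 for Ero1lb, 0.00142 for Clock, 0.00128 for Gfod2, 0.00104 for Mical2, 0.00168 for Mid1, 1.8e-05 for Pbx4, 4.0e-05 for Gm15421, 0.000158 for Atp6v0d2, 0.000107 for Msh5 and 0.000121 for Tgfbr3l.

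Over the lists, the unadjusted interaction gave counts to be read against 3.25% of all genes with the higher IH step and 5.02% with the lower, or 4.05% and 9.61% without control ZT12 replicate 2. In the unfolded protein response, 14 of 31 genes had an unadjusted P under 0.05 with the higher IH step (13 without that library), and the list's median was 0.11 in control and 0.19 without control ZT12 replicate 2, beside 0.63 in IH. Heat shock had 2 of 39 (6 without it), with medians of 0.28 in control and 0.20 without control ZT12 replicate 2. Ribosome biogenesis had 7 of 64 (9 without it), with medians of 0.16 in control and 0.21 without control ZT12 replicate 2. On the lower side, amino acid catabolism had 11 of 54 (16 without it), with medians of −0.17 in control and 0.00 without control ZT12 replicate 2. Bile acid genes had 2 of 28 (7 without it), with medians of −0.44 in control and −0.20 without control ZT12 replicate 2. Complex I had 9 of 37 (14 without it), with medians of 0.45 in control and 0.25 without control ZT12 replicate 2 and of 0.01 in IH. Complexes II to V had 6 of 40 (14 without it), gluconeogenesis 5 of 20 (7) and the proteasome 7 of 47 (7). Cytosolic ribosomal proteins had medians of 0.60 in control and 0.30 without control ZT12 replicate 2. Since 0 genes passed the adjusted test, these counts are descriptions of the lists, and the lists given are a selection.

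Over the 6 time points in IH, 588 of the 1063 genes that rose (55.3%) had their highest mean of the day at ZT12 and 547 (51.5%) their lowest at ZT8, with 431 at their lowest at ZT4. Of the 2160 that fell, 1137 (52.6%) peaked at ZT8 and 781 at ZT4, and 1193 (55.2%) were lowest at ZT12 and 534 at ZT16. Of all 13215 genes, 15.2% were highest at ZT12 and 18.7% lowest at ZT8, and 21.4% were highest at ZT8 and 26.1% lowest at ZT12. The shares of the called genes follow in part from the choice of the genes and are a description. Hsph1 had means of 24.9 ± 9.88, 3.31 ± 0.595, 5.14 ± 3.36, 30.7 ± 9.24, 29.6 ± 1.05 and 21.5 ± 5.05 FPKM at ZT0, ZT4, ZT8, ZT12, ZT16 and ZT20, given as mean ± SD of 3 mice, lowest at ZT4 and ZT8. Creld2 had 90.6 ± 73.8, 9.56 ± 2.03, 12.1 ± 3.98, 108 ± 63.9, 57.7 ± 29.8 and 37.1 ± 16.9 FPKM, with the same trough and the highest mean at ZT12. Its spread at ZT0 and ZT12 was wide, so these times are not told apart. Tfrc had 3.40 ± 0.160, 1.45 ± 0.200, 1.67 ± 0.0568, 7.89 ± 1.88, 5.77 ± 1.52 and 3.13 ± 0.323 FPKM and was highest at ZT12. Nr1d1 had 4.85 ± 2.96, 55.1 ± 0.534, 57.7 ± 7.00, 9.26 ± 4.10, 1.37 ± 0.127 and 0.691 ± 0.0969 FPKM, and Rgs16 2.77 ± 2.08, 80.7 ± 5.23, 122 ± 29.1, 14.8 ± 2.82, 1.98 ± 0.492 and 4.35 ± 4.48 FPKM, both low from ZT12 on. Control Rgs16 had 0.572 ± 0.457, 2.01 ± 1.26, 72.1 ± 20.4, 20.7 ± 9.66, 1.95 ± 1.5 and 1.93 ± 1.31 FPKM. Cirbp had 8.57 ± 2.25, 24.7 ± 4.25, 20.1 ± 4.02, 7.48 ± 1.84, 6.57 ± 0.281 and 8.09 ± 0.369 FPKM in IH and 8.17 ± 2.40, 20.1 ± 3.07, 14.7 ± 1.60, 10.1 ± 4.98, 5.33 ± 0.472 and 9.17 ± 1.08 FPKM in control.

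**Figure D5:**
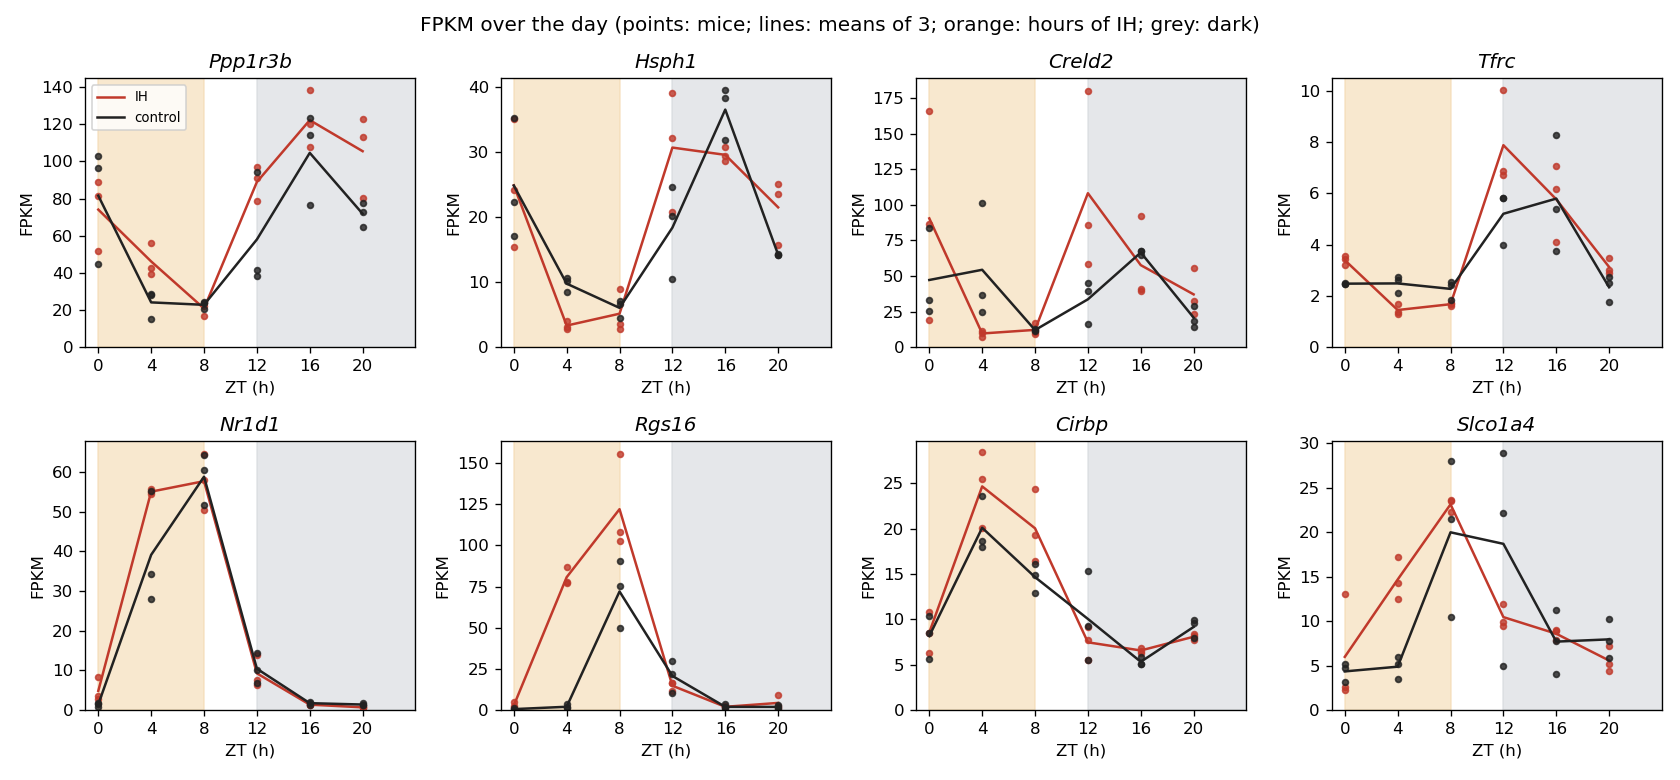
FPKM of 8 genes at 6 time points in IH (red) and control (black) liver, with points for single mice and lines through the means of 3, the hours of IH shaded orange and the dark phase grey. Ppp1r3b, Hsph1, Creld2 and Tfrc climb between ZT8 and ZT12, and Nr1d1, Rgs16 and Cirbp drop, in both conditions. Slco1a4 drops in IH, while the control means are 20.0 at ZT8 and 18.7 at ZT12, with a wide spread.

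The tissue was checked against cell type markers, to be read beside 8.04% of all genes that rose and 16.3% that fell. Falls made up 25.0% of pericentral, 16.7% of periportal and 20.0% of both endothelial and stellate markers, in short lists. The 11 hepatocyte markers tested summed to 63742 to 66044 FPKM at ZT8 and 59192 to 65942 FPKM at ZT12, and 1 of them rose, the hepatocyte transcription factor Hnf4a, with 96.2, 92.9 and 107 FPKM at ZT8 and 146, 156 and 161 FPKM at ZT12 and no overlap (log2 difference 0.64 ± 0.07, adjusted p = 0.00484). Of 8 pericentral markers 2 fell, the Wnt targets Axin2 (−0.66 ± 0.07, adjusted p = 0.00467) and Lgr5 (−0.57 ± 0.10, adjusted p = 0.0106), and of 6 periportal markers 1, histidine ammonia lyase Hal (−1.11 ± 0.22, adjusted p = 0.0161). Of 10 sinusoidal endothelial markers 2 fell, Stab2 (−0.35 ± 0.08, adjusted p = 0.0212) and Kdr (−0.26 ± 0.07, adjusted p = 0.0445), with a list sum of 67.4 to 76.6 FPKM at ZT8 and 66.6 to 69.7 FPKM at ZT12. Of 10 stellate cell markers 2 fell, Pdgfrb (−0.25 ± 0.07, adjusted p = 0.0492) and Acta2 (−0.26 ± 0.06, adjusted p = 0.029), with a list sum of 63.7 to 70.3 FPKM at ZT8 and 56.7 to 71.3 FPKM at ZT12. Of 11 Kupffer cell markers 0 were called, at 66.3 to 105 FPKM at ZT8 and 58.3 to 79.5 FPKM at ZT12. Neutrophil markers summed to 0.600 to 1.68 FPKM at ZT8 and 0.538 to 3.10 FPKM at ZT12, cholangiocyte markers to 25.1 to 42.6 FPKM at ZT8 and 22.2 to 30.2 FPKM at ZT12, erythroid markers to 175 to 245 FPKM at ZT8 and 224 to 273 FPKM at ZT12 and adipocyte markers to 7.05 to 10.6 FPKM at ZT8 and 6.28 to 7.63 FPKM at ZT12, with 0 called in each. Of 4 B cell markers 2 fell, among them Cd79a (−0.28 ± 0.08, adjusted p = 0.0485), and of 4 T and NK cell markers 3, Cd3g (−0.23 ± 0.04, adjusted p = 0.0138), Cd4 (−0.17 ± 0.04, adjusted p = 0.036) and Cd3e (−0.19 ± 0.05, adjusted p = 0.0397). These 4 genes were below 1 FPKM in all 6 libraries. Pancreatic acinar markers Prss1, Prss2, Cpa1, Cela3b, Ctrb1, Pnlip, Cel, Try4 and Try5 were at 0 in all 6 libraries, as was the fat cell gene Lep. Except for Hnf4a, Axin2 and Lgr5, the call of each marker named was lost without ZT8 replicate 1 (adjusted p from 0.0572 to 0.136) and all but that of Cd3e without ZT8 replicate 2 (0.0527 to 0.152). Without ZT8 replicate 3, 6 were lost (0.05 to 0.108), and without ZT12 replicates 1, 2 and 3, 5 (0.052 to 0.0814), 6 (0.06 to 0.119) and 4 (0.08 to 0.124). The replicate block ended 6 (0.0514 to 0.0939), those of Stab2, Kdr, Pdgfrb, Acta2, Cd79a and Cd4. Median-of-ratios scaling ended 4, quantile normalization 6, the spread of all 18 IH libraries 5, no filter on low values 3, no intensity trend 4 and a pseudocount of 0.1 2, with adjusted p from 0.0502 to 0.418.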

How the data were processed

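Liver RNA of 36 mice was measured by poly(A)-selected stranded sequencing in paired reads of 100 bases. The authors aligned reads to mm10 with TopHat and estimated FPKM per replicate with Cufflinks (TopHat2 2.1.1 and Cufflinks 2.2.1 in the submitters' processing notes), and the deposited tables hold these FPKM estimates, 1 table per condition. Read depth is unknown, the annotation and strand setting are not given in the sources used here, and an FPKM of 0 may be a failed estimate. Condition was read from each table and time and replicate from its columns.

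Of 24346 symbols, 280 occurred on several rows and were not used, and tests were run on the 13215 of the other 24066 whose mean across 36 libraries reached 0.1 FPKM. ZT12 was compared with ZT8 on log2(FPKM + 1), a scale that understates changes of low genes, with limma 3.58.1 (R 4.3.3, intensity trend, Benjamini-Hochberg adjustment, threshold 0.05), in IH and in control, and as an interaction over 12 libraries. P-values measure the spread between 3 mice a group. The script was tested on simulated data. The members and lists were chosen with earlier results of these data known. The 12 largest rises and falls were sought among called genes without overlap between the groups and with a higher group mean of at least 1 FPKM. Genes named are the 12 largest called rises and falls, up to 4 called genes per list by smallest p, clock genes, called markers, the 5 smallest interaction P values each way and genes the study names, and further list members that did not pass are given as values. Some genes this rule names are not reported here. Replicate numbers are the labels' own, and in IH same-numbered mice deviated together with correlations of 0.124, 0.147 and 0.14 across genes, but not in control (−0.343, −0.241 and 0.153), so a fit with the replicate number as a block was run and its values stand beside the calls it changed. Alternatives were the scaling, pseudocount, filter, trend, spread and each library left out. Within groups, replicates correlated at 0.993 to 0.995 at ZT8 and 0.990 to 0.993 at ZT12 in IH. Promoters came from RefSeq (GRCm38.p6). Coordinates are those of the GRCm38 annotation.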

Additional observations from a re-analysis of the deposited data

How the results depend on the processing

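Leaving out 1 library gave 259 to 1017 genes higher and 648 to 2003 lower at ZT12 in IH liver, with the lowest counts without ZT8 replicate 1. The replicate block gave 803 higher and 1675 lower, of which 743 and 1555 were also called without the block, and 0 interaction calls, and it changed no call of a named gene beyond those given beside it. Scaling moved the share of rises among called genes from 33.0% to 31.4% (common sum), 45.5% (median of ratios) and 48.9% (quantile). The interaction gave 0 calls with any 1 library left out, 1 and 2 with the spread of all 36 libraries, and 65 and 150 at an unadjusted P of 0.01. Over 170 named genes and 15 settings, 264 tests were weaker, with the largest numbers without ZT8 replicate 1 (56) and ZT8 replicate 2 (55), and 12 were stronger. Signs turned for 2 uncalled genes near 0, Cox6a1 (0.047 with median of ratios, 0.076 with quantile normalization, −0.028 to 0.019 with 1 library left out) and Bhlhe40 (−0.31 to 0.066 with 1 library left out, the highest without ZT12 replicate 3), and the cause was not tested. Depth is unknown, so no counting error could be given.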
